A study of Mus musculus with 7 samples.

Results

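The 7 genes Arid5b, Capn2, Irf2bp2, Lpp, Cubn, Nsmce2 and Zfp469 each had 5 or 6 JUNB regions that were called in all 4 deposited JUNB peak lists. Peaks of the 4 lists that shared at least 1 bp were joined into regions, and each region, by its median summit, went to the mouse protein-coding gene with the nearest end within 100 kb. By this rule 39 of 2411 such common regions, and 97 of 11016 regions of any kind, belonged to these 7 of 21900 genes. Common regions made up 21.9% of all regions given to a gene, and 13 genes (0.0594%) had 5 or more of them. The 7 genes are part of these 13, and the other 6 are given by count only. Each of the 7 was chosen for its number of common regions, so that number is a description and was not tested.

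The peaks come from CUT&RUN, in which a nuclease tethered to an antibody releases the DNA around a bound protein. The cells were the line iMGT-Myh6-eGFP-MEF, mouse embryonic fibroblasts in which doxycycline switches on MGT (the factors Mef2c, Gata4 and Tbx5, which act in heart development) and which carry a Myh6-eGFP reporter. The day before induction they were transfected with a control siRNA (siControl, 2 JUNB libraries) or, by the titles, with an siRNA against the sulfotransferase gene Chst7 (siChst7, 2 JUNB libraries), and they were collected at day 1 of induction. All 4 libraries therefore carry the induced MGT factors, from 1 cell line, and no uninduced cells are among the groups. The study's question for this comparison is whether JUNB sits elsewhere when Chst7 is targeted. No file measures Chst7, so the knockdown was not checked here. The groups follow the titles, although the labels' account of the transfection mentions siJunb, siH1f0 and siControl but not siChst7.

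The lists held 4735 to 10163 peaks, the shortest and the longest both from siChst7, and the files give no read depth. The 3 IgG libraries were not analysed here, and the sources used here do not give whether they served as the peak caller's control. Expression was not measured in these files, so the cell type was not checked here. Which marker genes owned a common region is given only as a description and does not identify the cell type. Over all protein-coding genes 8.32% owned one, and 25.1% had a region in any list. The share that owned one rose with the length of genome nearest to a gene. It was 1.87% in the decile of genes with the shortest lengths and 17.3% in that with the longest. Shares of gene lists set against 8.32% here and below are not adjusted for this length. Of 8 fibroblast markers 3 owned a common region (Col1a1, Vim and Thy1), while Pdgfra and Dcn had no region in any list, and of 4 cardiomyocyte markers none owned one, Tnnt2 alone having a region in any list.

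JUNB is a subunit of the dimeric transcription factor AP-1, in which a JUN protein pairs with a FOS or related protein and reads a short palindrome, TGANTCA in its common form. In fibroblasts AP-1 is known for binding enhancers that answer growth factors, stress and adhesion, many of them far from the gene start. The 7 genes belong to no single pathway, which does not describe all 13 genes with 5 or more common regions. Arid5b, Irf2bp2 and Zfp469 encode nuclear proteins with DNA-binding or corepressor roles, and Capn2 and Lpp encode a protease and an adaptor of the adhesion machinery. Cubn encodes an endocytic receptor and Nsmce2 a SUMO ligase of genome maintenance.

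Only 1 of the 39 common regions overlapped a promoter window of its own gene, and it was at Capn2. The promoter table, from RefSeq on GRCm38.p6 (the assembly of mm10), holds 250 bases before and 50 after a start site and has windows for 5 of the 7 genes. The 250 bases before the start are shown for Capn2, whose window overlapped a region of all 4 lists, and for Irf2bp2, whose window overlapped a region of 3 lists. Zyx, of the same protein family as Lpp, is shown beside them as an example of a related gene whose window a common region overlapped. The window of Capns1, of the calpain list, was overlapped by a common region as well. It holds no TGANTCA and is not shown. They are chr1:182517611-182517860 on the minus strand for Capn2, chr8:126593987-126594236 on the minus strand for Irf2bp2 and chr6:42349578-42349827 on the plus strand for Zyx. Each reads 5′ to 3′ in the direction of the gene, and capitals mark TGANTCA.
Capn2: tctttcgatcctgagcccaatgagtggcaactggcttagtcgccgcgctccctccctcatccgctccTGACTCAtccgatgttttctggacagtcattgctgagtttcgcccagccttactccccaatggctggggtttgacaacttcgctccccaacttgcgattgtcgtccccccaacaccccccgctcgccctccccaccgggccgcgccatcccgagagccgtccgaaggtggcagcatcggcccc
Irf2bp2: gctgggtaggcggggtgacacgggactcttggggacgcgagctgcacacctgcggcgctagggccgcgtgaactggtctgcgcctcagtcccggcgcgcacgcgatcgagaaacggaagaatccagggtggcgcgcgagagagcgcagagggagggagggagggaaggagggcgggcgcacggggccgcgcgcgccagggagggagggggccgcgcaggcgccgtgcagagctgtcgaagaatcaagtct
Zyx: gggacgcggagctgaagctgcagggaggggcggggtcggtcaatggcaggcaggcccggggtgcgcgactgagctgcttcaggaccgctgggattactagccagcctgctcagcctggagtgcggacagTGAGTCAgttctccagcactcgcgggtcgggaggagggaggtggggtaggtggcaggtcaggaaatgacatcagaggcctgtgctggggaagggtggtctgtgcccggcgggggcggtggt
The Capn2 sequence holds TGACTCA with its first base 183 bases before the start site (chr1:182517787-182517793), and its centre lay 168 bp from the median summit of the region. The Zyx sequence holds TGAGTCA, first base 121 bases before the start, 254 bp from the summit. The Irf2bp2 sequence holds none of these letters, and neither do the windows of Arid5b, Cubn and Lpp. TGANTCA, whose reverse complement is again TGANTCA, was in 7.81% of all 32851 promoter windows of 300 bases, in 23.9% of the 289 windows that overlapped a common region and in 7.39% of those that overlapped no region. A match is a description of the letters and not evidence of a site.

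**Figure D1:**
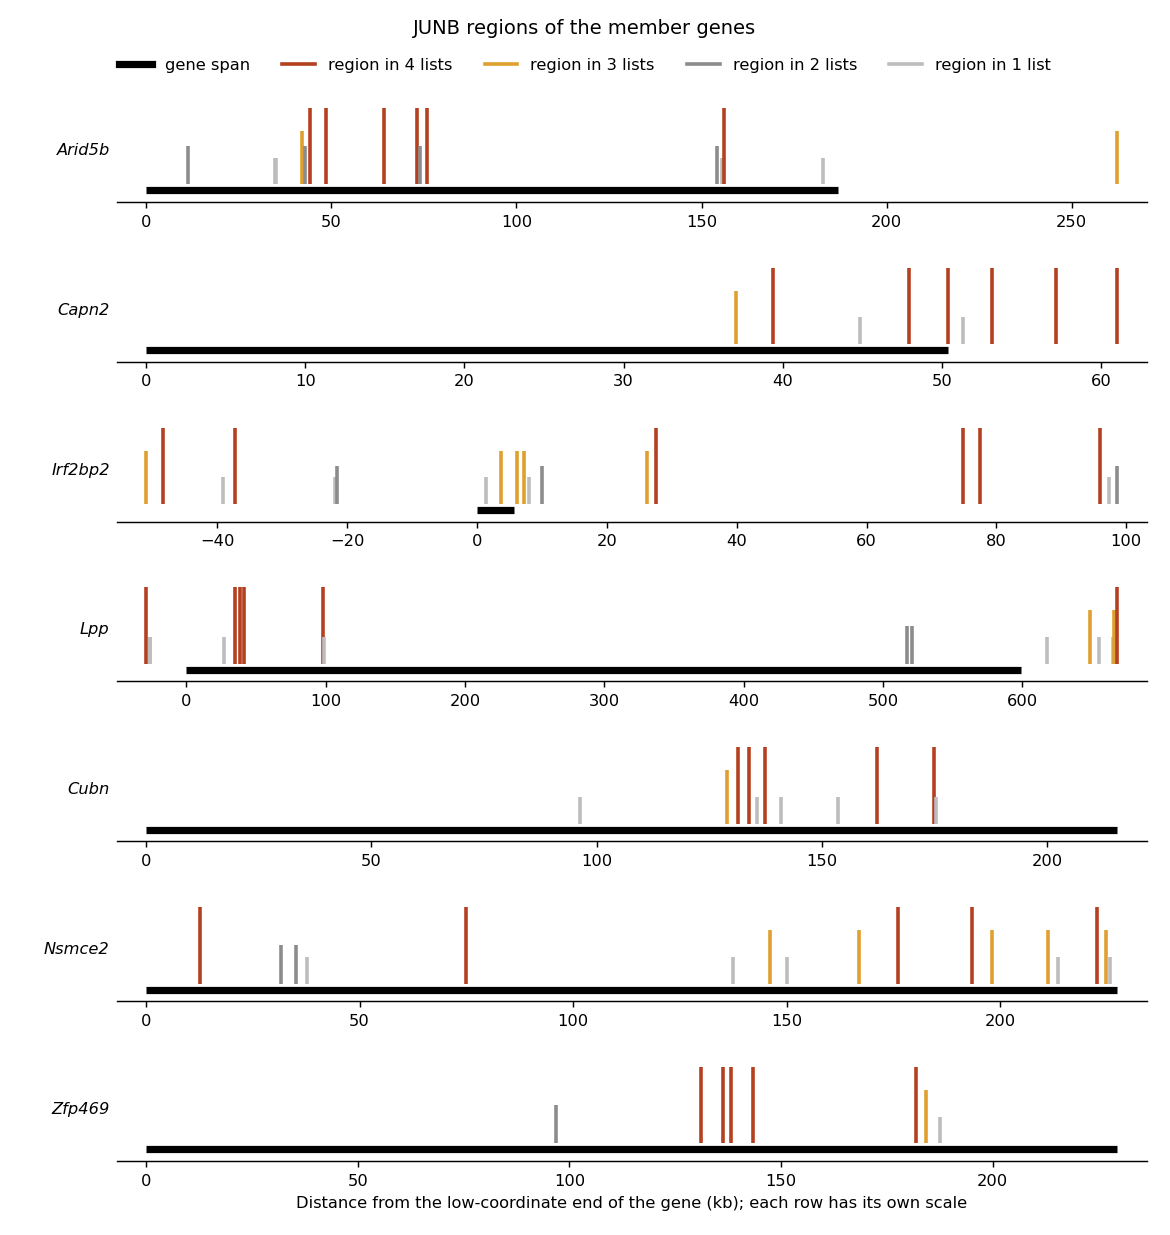
Regions of each gene along its locus: the horizontal axis is the distance in kb from the low-coordinate end of the gene, the black bar is the gene span, and tall red lines are regions in all 4 lists, with shorter lines for 3, 2 or 1 list. The 6 common regions of Capn2 fall within 21.6 kb around its start, at the right end of the bar, those of Irf2bp2 lie away from its short gene span on both sides, and those of Cubn, Nsmce2 and Zfp469 are all inside the span.

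Capn2 encodes the catalytic subunit of calpain-2, a calcium-activated protease that cuts adhesion and cytoskeletal proteins. It held its 6 common regions in the shortest stretch of the 7 genes: 76.3 kb lay nearest to its ends, or 7.86 common regions per 100 kb. The gene lies on chromosome 1 from 182467253 to 182517610 (mm10, like all coordinates here) and starts at its high end. The strongest of its regions (182527788 to 182528824) lay 10.7 kb upstream of the start, with deposited folds over local background of 30.8 and 33.6 in the siControl lists and 24.1 and 15.1 in the siChst7 lists, in replicate order. It ranked above 95.9% of peaks or more in every list, by the percentile of its fold, and its 4 summits fell within 11 bp of each other, the tightest of the 39. The region over the start site (182516906 to 182518059, summit 0.012 kb upstream) had folds of 9.02, 7.73, 7.51 and 4.88. Another region 2.82 kb upstream (182519109 to 182521081) had 11.5, 12.9, 13.5 and 7.29, with summits within 22 bp. The other 3 lay 6.84 kb upstream and 2.42 and 10.96 kb inside the gene and had folds of 4.97 to 9.31. No gap between neighbouring summits exceeded 8.54 kb. When peaks had to overlap reciprocally by 50%, none of the 6 was common to all lists. Next to Capn2, the genes Trp53bp2 and Capn8, another calpain, owned no common region.

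Apart from Capn2 itself, 2 of 15 calpain, calpain subunit and calpastatin genes owned a common region, Capn5 and Capns1, against 8.32% of all protein-coding genes. Capns1, the small regulatory subunit that Capn2 pairs with, had 1 common region (chromosome 7, 30194814 to 30196901), and it overlapped the gene's promoter window, with folds of 14.8, 9.94, 17.7 and 12.5. Cast, the gene of the calpain inhibitor calpastatin, had a region in fewer than 4 lists. Capn1, the catalytic subunit of calpain-1, was among the 10 genes with no region in any list.

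Lpp encodes a LIM protein of the zyxin family that sits at focal adhesions and stress fibres. Its common regions were the most thinly spread of the 7 genes, 6 in 400 kb or 1.50 per 100 kb. The gene spans 599.2 kb (chromosome 16, 24393350 to 24992578), and the 100 kb limit leaves out its middle. A group of 3 lay within 6.99 kb, 34.7 to 41.7 kb into the gene from its start. In that group the region 24434283 to 24435580 had the highest median fold of the 6, with 12.5, 11.0, 14.2 and 12.1. The lowest median fold was that of 24427597 to 24428649, with 7.59, 6.87, 7.84 and 13.2, although the last was the highest of the 6 in that list. One region lay 28.8 kb upstream, 1 lay 98.0 kb into the gene and 1 lay 69.1 kb beyond the far end, and their folds ran from 6.04 to 12.7. Beyond the 100 kb limit, Lpp held 2 more common regions inside its span. One of them (24494537 to 24499011) had folds of 15.9, 16.0, 11.0 and 7.57, above every counted region of the gene in the siControl lists and below 24434283 to 24435580 in the siChst7 lists. With a 50% reciprocal overlap Lpp had 1 common region. The neighbours Bcl6 and Tprg owned none.

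Apart from Lpp itself, 4 of 14 zyxin family and focal adhesion genes owned a common region, Zyx, Enah, Actn1 and Actn4, against 8.32% of all genes. Zyx, which gives the family its name, had 1 common region, 0.055 kb from the nearest gene end by its summit (chromosome 6, 42348770 to 42349958), with folds of 7.09, 8.70, 10.4 and 5.68. Actn4, an actin crosslinker, had 2, and the stronger (chromosome 7, 28930525 to 28931757) had 18.0, 16.1, 20.4 and 14.3. Vcl, Tln1 and Pxn, core genes of focal adhesions, had regions in fewer than 4 lists, and Trip6, Ajuba, Vasp and Evl had none.

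Irf2bp2 encodes a corepressor that binds the interferon regulatory factor IRF2. Its gene is the shortest of the 7, 5.69 kb (chromosome 8, 126588296 to 126593986), and all 6 common regions lay outside it, 21.8 to 90.2 kb from the nearest gene end. Upstream of the start were 4 and beyond the far end 2, so a count over gene bodies with 5 kb on each side gave 0. The highest median fold was that of 126539161 to 126540852, 48.4 kb beyond the far end, with 15.8, 12.6, 11.4 and 14.1, but in siChst7 replicate 1 other regions of the gene were higher. The lowest median fold was that of 126615162 to 126616333, 21.8 kb upstream, with 11.2, 7.08, 8.57 and 5.37. Median folds over the 6 regions were 11.6, 9.37, 11.5 and 7.41 in the 4 lists. Around the start site itself 3 regions were in 3 lists each, both siControl lists and siChst7 replicate 1, and the one on the promoter window shown above (126594121 to 126594824) had folds of 9.72, 7.05 and 7.12 there. Without siChst7 replicate 2, the shortest list, Irf2bp2 had 10 common regions. The next gene on the upstream side, Tomm20, is 336.7 kb away, and 3 common regions in that interval were nearer to Tomm20. Among them, 126849019 to 126850377 had folds of 19.9 to 38.5, above any region given to Irf2bp2. On the other side Tarbp1 had none.

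Apart from Irf2bp2 itself, 2 of 7 IRF2BP, IRF and partner genes owned a common region, against 8.32% of all genes. Irf2bpl, the closest relative besides Irf2bp1, had 2 (chromosome 12), and the one with the higher median fold, 86832762 to 86834911, had folds of 10.8, 7.21, 16.1 and 13.2. Vgll4, whose protein is a cofactor of TEAD factors, had 1, with folds of 4.94 to 10.1. Irf1 and Irf2 had regions in fewer than 4 lists, and Irf2bp1, Irf3 and Irf8 had none.

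Arid5b encodes an AT-rich DNA-binding protein that works with the histone demethylase PHF2 in mesenchymal and fat cell differentiation. All 6 common regions lay inside its 186.8 kb span (chromosome 10, 68092523 to 68279355), between 30.0 and 141.9 kb downstream of the start site in the promoter table. They fell into groups of 2 and 3, spanning 4.37 and 11.8 kb, and a single region nearer the start. The region 68156402 to 68157351 had the highest folds of the gene in every list, 12.3, 19.0, 24.9 and 13.7, and the highest of any of the 39 regions in siChst7 replicate 1. The lowest median fold was that of 68136297 to 68137952, with 5.90, 4.58, 5.56 and 3.93, and the last is the lowest fold of the 39 regions in any list. The other 4 regions of Arid5b had folds of 4.25 to 9.37. With a 50% reciprocal overlap Arid5b had 2 common regions. Rtkn2 and Cabcoco1, the neighbours, had 1 common region each. Apart from Arid5b itself, 2 of 14 genes of the ARID list owned a common region, against 8.32% of all genes. Arid5a, the closest relative, had 1 (chromosome 1, 36325331 to 36326570) with folds of 10.1, 7.63, 14.1 and 8.29. Arid1a, a subunit of the BAF remodelling complex, had 1 with 6.83 to 11.0. Phf2 had a region in fewer than 4 lists.

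Zfp469 encodes a large zinc finger protein whose human counterpart is mutated in brittle cornea syndrome, a connective tissue disease. Its 5 common regions lay inside its span (chromosome 8, 122043123 to 122272650), and 4 of them fell within 12.3 kb. The highest median fold was that of the region apart from these (122224442 to 122226141), with 9.88, 11.3, 17.4 and 13.9. The lowest was that of 122179053 to 122179697, with 11.8, 6.58, 6.12 and 5.93, although in siControl replicate 1 its fold was the highest of the 5. The distance limit mattered here: a common region inside the gene (122144208 to 122145766) lay 101.8 kb from the nearest end and so was not counted, and its folds of 21.1, 22.9, 35.1 and 25.0 exceeded those of every counted region of the gene. With a fold of at least 5 Zfp469 had 3 common regions, with lists of equal length 2 and with a 50% reciprocal overlap 1. Banp, on the low side, had 2 common regions and Zfpm1, on the high side, 1. Apart from Zfp469 itself, 3 of 7 genes linked to it or to the cornea and collagen owned a common region, the collagen genes Col5a1, Col5a2 and Col1a1, against 8.32% of all genes. Col3a1, another fibrillar collagen gene, had none.

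Cubn encodes cubilin, the receptor that takes up vitamin B12 with intrinsic factor in the gut and filtered proteins in the kidney. Its 5 common regions lay inside the gene (chromosome 2, 13276338 to 13491876), 40.7 to 84.3 kb from the start, and 3 of them fell within 6.15 kb. In that group the region 13409436 to 13411565 had folds of 22.2, 14.1, 23.3 and 22.7, the highest of any of the 39 regions in siChst7 replicate 2. Its neighbour 13407053 to 13408190 had 10.1, 12.6, 15.9 and 14.8. The lowest median fold belonged to 13450636 to 13451435, with 6.75, 6.11, 6.91 and 4.88. With a fold of at least 5 or with lists of equal length Cubn had 3 common regions, and with a 50% reciprocal overlap 1. A further common region inside Cubn lay 105.9 kb from the nearest end and was not counted. The next gene, Trdmt1, 13.0 kb away, had 2 common regions, one with folds of 17.4 to 30.9 (13555461 to 13557983), and Rsu1 on the other side had none. None of the other 7 genes of cubilin-dependent uptake owned a common region: Dab2 and Tcn2 had regions in fewer than 4 lists, and Amn and Lrp2, the partners of cubilin at the membrane, had none.

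Nsmce2 encodes the SUMO ligase of the SMC5/6 complex, which handles DNA damage and replication intermediates. Its 5 common regions were scattered over 210.2 kb inside the gene (chromosome 15, 59374198 to 59601689), and no summit was closer than 17.2 kb to the next. The region 59447721 to 59449508 had the highest folds of the gene in every list, 11.0, 10.0, 21.0 and 11.5, and the lowest median fold was that of 59386504 to 59387190, with 4.44, 4.97, 6.97 and 5.67. Another common region (59480348 to 59481847) lay 106.8 kb from the nearest end and was not counted. Its folds of 15.8, 13.3, 16.3 and 15.7 were above those of every counted region of the gene except in siChst7 replicate 1. Beyond the gene, Trib1, a pseudokinase gene 47.0 kb away, had 1 common region, 0.138 kb from its nearest end (59647432 to 59648881), with folds of 7.02 to 11.4, and Washc5, 0.004 kb from Nsmce2, had none. Without siChst7 replicate 2, Nsmce2 had 8 common regions. With a fold of at least 5, with lists of equal length or with summit windows it had 2, and with a 50% reciprocal overlap 1. Apart from Nsmce2 itself, 1 of 11 genes of the SMC5/6 complex and the SUMO pathway, Eid3, owned a common region, against 8.32% of all genes, while Smc5, Smc6 and Nsmce1, subunits of the same complex, had none.

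**Figure D2:**
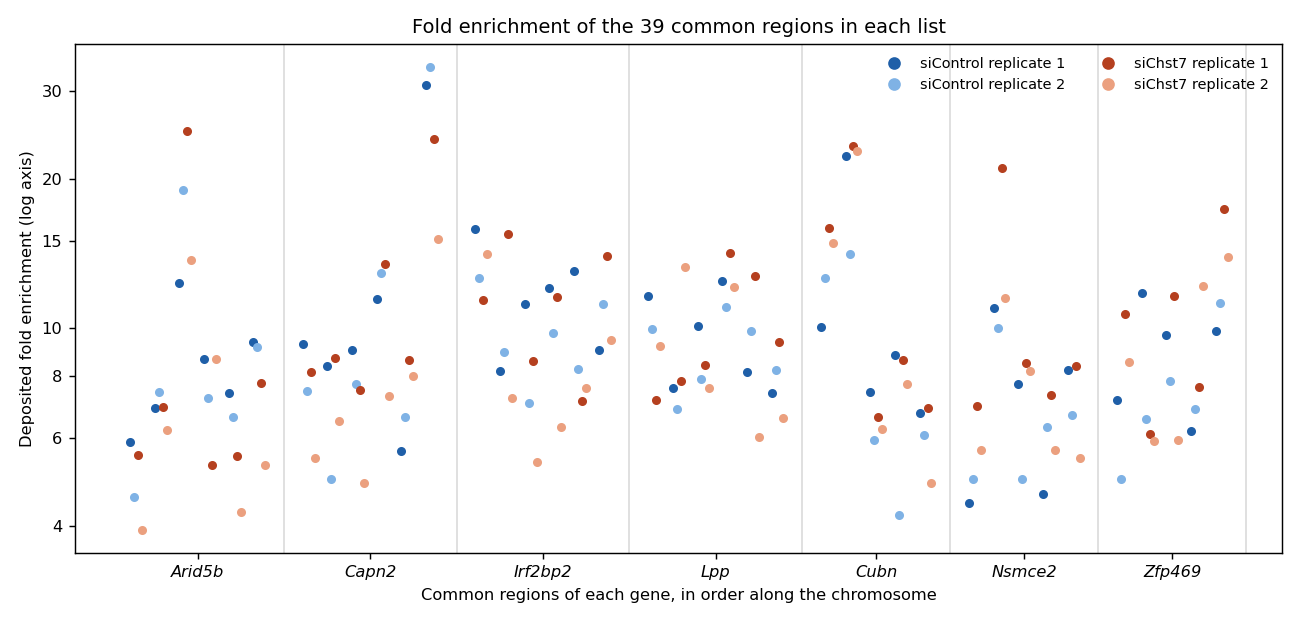
Deposited fold enrichment over local background (log axis) of each of the 39 common regions in the 4 lists, grouped by gene and ordered along the chromosome within a gene. Points run from 3.93 to 33.6, and in Arid5b, Capn2, Cubn and Nsmce2 the same region has the highest fold of its gene in all 4 lists.

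Each fold is the authors' own value for a peak, and the lists' scales may differ, so a median over lists serves only to order the regions of a gene. Over the 39 common regions the median fold was 9.02, 7.73, 8.57 and 7.29 in siControl replicates 1 and 2 and siChst7 replicates 1 and 2. All 2411 common regions near a gene end had medians of 9.02, 8.13, 10.7 and 7.75 in the same lists. The median percentile of the 39 within its list was 75.6, 67.6, 71.5 and 60.0, against 75.6, 72.1, 83.7 and 67.0 for all common regions. In no list was the median of these genes' regions above that of all common regions. Across the 39 regions the folds of 2 lists had a Spearman correlation of 0.44 (siControl replicate 1 and siChst7 replicate 2) to 0.73 (the siControl pair), and across all common regions 0.52 to 0.65. The points share libraries and loci, so these values describe the lists.

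Except at Capn2, regions of the 7 genes mostly lay farther from gene ends than common regions in general. The 6 regions of Capn2 lay 0.012 to 10.96 kb from an end. Over all 39 the median distance to the nearest gene end was 48.4 kb, against 14.8 kb for all 2411, and 34 of 39 (87.2%) were more than 10 kb away, against 60.8%. Inside their own gene's span were 27 of 39 (69.2%), and 53.5% of all common regions lay inside some protein-coding gene. The rule favours genes with long stretches nearest to them, so these differences are not independent of it. Regions were 563 to 2130 bp wide, with a median of 1138 bp against 928 bp for all common regions. The highest-fold summits of the 4 lists spread over a median of 218 bp per region, against 191 bp. They lay within 100 bp of each other in 11 of 39 regions (28.2%), against 31.0% of all. Spacing was closer than for common regions at large: 24 of 39 (61.5%) had another common summit within 10 kb along a chain of such gaps, against 20.5% of all 2785 common regions. The choice of genes with many regions favours such chains, and no test was made.

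**Figure D3:**
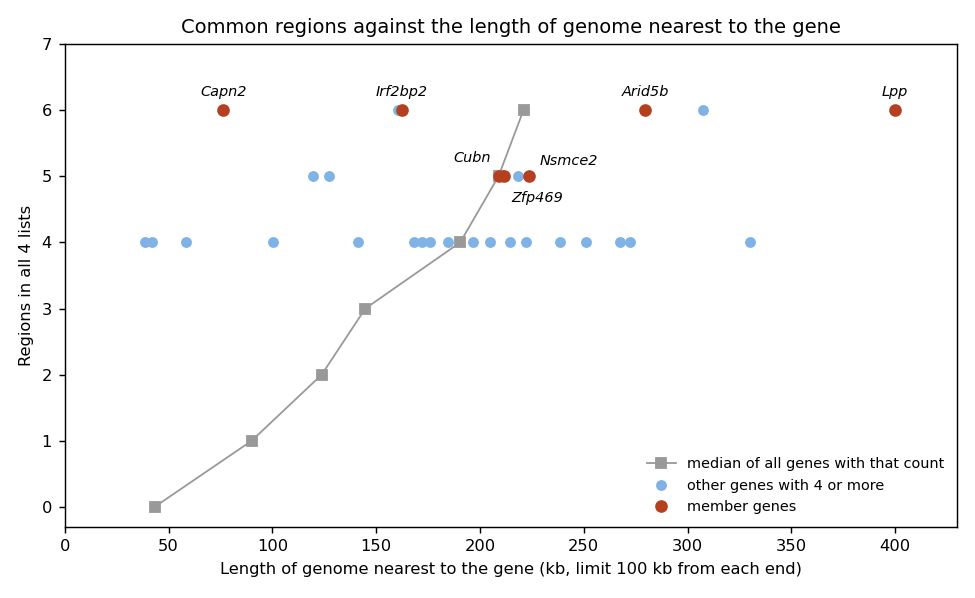
Number of common regions (vertical axis) against the length of genome nearest to the gene in kb (horizontal axis). Red points are the 7 genes, blue points the other genes with 4 or more common regions, and grey squares the median length over all genes with each count, which rises from 43.3 kb at 0 regions to 221.0 kb at 6.

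The number of common regions rose with the length of genome nearest to a gene. Genes without a common region had a median of 43.3 kb, and the 13 genes with 5 or more mostly had long stretches: 8 of the 13, and 5 of the 7, were in the decile of genes with the longest, at 198.6 kb or more. Across all genes the Spearman correlation of count and length was 0.18, a description over neighbouring genes that share boundaries. Per 100 kb, common regions became fewer with length, from 0.286 in the decile of genes with the shortest stretches to 0.0990 in that with the longest. Spread evenly over the 1698 Mb within reach of a gene end, common regions would number 0.142 per 100 kb. Each of the 7 genes had to lie far above this, since 5 or more common regions were required and no length can exceed 400 kb. The ratios to it are thus a description and no test. Capn2 had 55.3 times as many, Irf2bp2 26.0, Cubn 16.9, Zfp469 16.6, Nsmce2 15.8, Arid5b 15.1 and Lpp 10.6. The order by count is therefore not the order by density, in which Lpp came last and Capn2 first. The 1823 genes with any common region had a median density of 1.32 per 100 kb, against 1.50 for Lpp. Among them Capn2 was number 83 by density and Lpp number 813, since a single region in a short stretch gives a high density. Just inside the threshold, Cubn, Nsmce2 and Zfp469 had 5 regions each at 2.24 to 2.39 per 100 kb. Arhgap10, Col4a2, Klf6 and Myh9, not among the 7, also had 5 each, at 2.29 to 4.17 per 100 kb. Just outside it, 18 genes had 4, at 1.21 to 10.4 per 100 kb. The other 6 genes at 5 or more were Bach2, Cd44, Arhgap10, Col4a2, Klf6 and Myh9, at 1.95 to 4.17 per 100 kb.

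**Figure D4:**
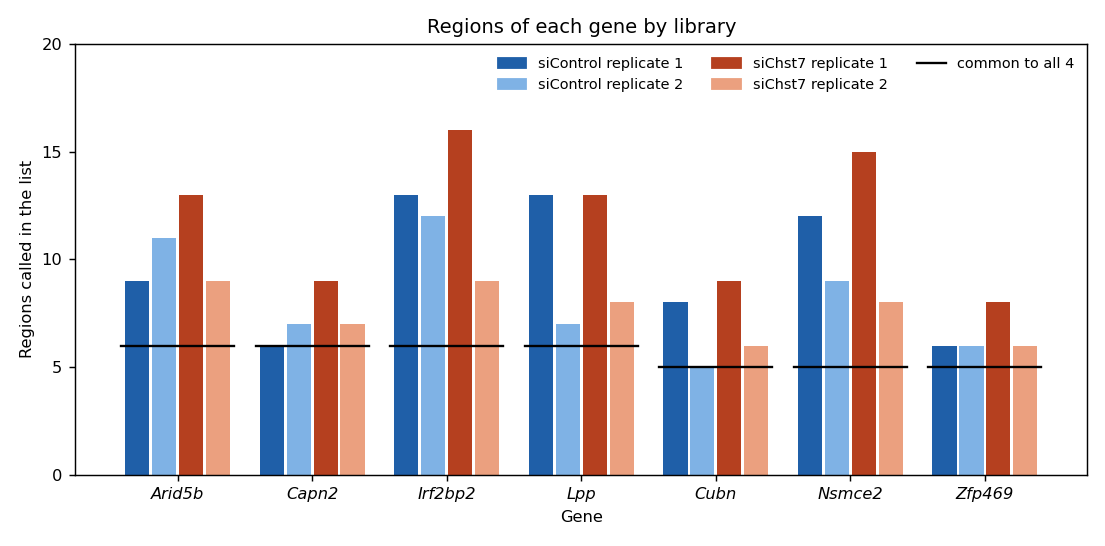
Number of regions of each gene called in each list (bars, from 0), with a black line at the number common to all 4 lists. siChst7 replicate 1 has the tallest bar for 6 genes and shares it with siControl replicate 1 for Lpp.

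At the full lists, which differ in length, the siRNA groups overlapped in the number of regions at these genes. siControl replicates 1 and 2 held 67 and 57 regions of the 7 genes, a mean of 62.0 ± 7.07 (SD, n = 2). siChst7 replicates 1 and 2 held 83 and 53, a mean of 68.0 ± 21.2 (SD, n = 2). Both siControl values thus lay between the siChst7 values. With the 4735 best peaks of each list, the numbers were 46 and 46 in siControl and 53 and 53 in siChst7, so that the groups did not overlap. The same numbers over all regions near a gene end are not given at equal length. Whether this separation is particular to the 7 genes was therefore not tested. The difference of mean log2 numbers at equal length was 0.20 (two-sided exact permutation p = 0.333, the smallest possible). At the full lists this difference, siChst7 minus siControl, was 0.10 (two-sided exact permutation p = 1, smallest possible 0.333 with 4 libraries), and over all regions near a gene end it was 0.18. Its direction rested on single libraries: it was −0.26 without siChst7 replicate 1, −0.06 without siControl replicate 2 and 0.44 without siChst7 replicate 2. The 7 genes were chosen for regions present in every list, and these 39 add the same number to each full list. They damp the difference between the groups. Common regions were 40.2% of the regions of the 7 genes and 21.9% of all regions near a gene end, so 0.10 and 0.18 are not measured alike. The labels call the libraries biological replicates and do not say whether cultures were separate, so the spread may be technical. siChst7 replicate 1, the longest list, held the most regions for 6 of the 7 genes and tied for Lpp. The share of a list's regions that belonged to the 7 genes was 1.21% and 1.16% in siControl and 0.946% and 1.33% in siChst7. Because the 39 common regions are in every list, this share tends to fall as a list grows. It was lowest in the longest list and highest in the shortest, so it does not compare the groups.

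Of the 97 regions of the 7 genes, 39 (40.2%) were in all 4 lists, the share the rule selected on, against 21.9% of all regions near a gene end. A further 17 were in 3 lists, 12 in 2 and 29 in 1. Among the 17, 10 (58.8%) were missing only from siChst7 replicate 2, the shortest list, against 53.5% of all regions in 3 lists. Of the 29 in a single list, 16 were in siChst7 replicate 1. The partly called regions had lower folds than the common ones: their medians were 5.45, 5.88, 6.27 and 6.19 in the 4 lists, and none exceeded 10.5.

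Presence in the siControl pair of lists with absence from the siChst7 pair was found for 0 of the 97 regions, against 1.6% of all regions near a gene end. The reverse pattern was found for 5 of 97, against 3.74%. They were 68103671 to 68104330 (folds 6.35 and 4.92 in the siChst7 lists) and 68166328 to 68166839 (8.09 and 5.09) in Arid5b, 126598069 to 126598683 (4.49 and 7.04) and 126686657 to 126687304 (6.61 and 6.94) at Irf2bp2, and 24910620 to 24910885 (9.23 and 5.96) in Lpp. The one at 126598069 lay 4.38 kb upstream of the Irf2bp2 start. Absence from a list means only that no peak passed that list's threshold, so these are differences between lists. The counts moved with each library: without siControl replicate 1, siControl replicate 2, siChst7 replicate 1 or siChst7 replicate 2 the siControl count was 4, 11, 12 or 1 and the siChst7 count 9, 7, 9 or 22. With a library left out, its group needed only 1 list. Shares over all regions near a gene end are not given for these counts, so they cannot be read as a trait of the 7 genes.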

How the data were processed

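JUNB CUT&RUN peak lists of 4 libraries (2 siControl, 2 siChst7, grouped by title) were used, 4735 to 10163 peaks each, and the 3 IgG libraries were not analysed here. Reads were aligned with Bowtie2 to mm10 and peaks called with MACS3, per the submitters' processing notes, in lists called per library. Versions, settings and the control used are not given in the sources used here. The deposited columns hold a fold enrichment over local background (a ratio), −log10 p and −log10 q values and a peak score, as the authors' caller wrote them, and every list ends near q = 0.01. The labels state sequencing of 30 M reads, which does not give mapped depth, so no interval could be set on a fold.

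Peaks were joined by 1 bp of overlap and given to protein-coding genes by the nearest end within 100 kb of the median of all peak summits in the region. The highest-fold summit of each list was used only for the spread of summits. The genome nearest to a gene within this limit is its length in the text. Gene spans and promoter windows came from RefSeq, GRCm38.p6, and exons and introns were not used here. The planned motif search around summits was not run, since no genome sequence was used. Promoter windows were searched instead, a choice made after seeing the data. Members and gene lists were chosen with earlier results of these data known. Named are the 7 genes, their neighbours, list genes with a common region, the other genes with 5 or more, each gene's regions of highest and lowest median fold and those called in 1 group only. List genes without a common region are examples chosen after their values were seen. The siRNA groups were compared by an exact permutation test on log2 numbers of regions computed from the deposited lists. Alternatives covered overlap, summit windows, thresholds, list length, assignment, left-out libraries and a replicate block. The scripts were tested on simulated data. Tables were handled in pandas 2.3.3 with NumPy 2.4.6 under Python 3.11.15, correlations came from SciPy 1.17.1, and Matplotlib 3.10.9 drew the figures.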

Additional observations from a re-analysis of the deposited data

How the results depend on the processing

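The 39 common regions became 10 with a 50% reciprocal overlap, 8 with the limit at 20 kb and 24 by the nearest start site within 100 kb, in a table that lacks Nsmce2 and Zfp469, and stayed within 1.5 times (27 to 39) under summit windows, q of at most 0.001, fold of at least 5 or 3, equal list length and gene bodies with 5 kb. They numbered 38 to 49 with any 1 library left out. Counts of all common regions under the same settings are not given, so whether these changes are particular to the 7 genes was not tested. Over single genes, 66 of 91 counts stayed within 1.5 times. Capn2 had 0 with reciprocal overlap, Irf2bp2 0 in gene bodies with 5 kb, and within 20 kb only Capn2 (6) and Nsmce2 (2) had any. The siRNA difference of 0.10 stayed positive under every alternative except 2 left-out libraries, and ran from −0.26 to 0.44 over the left-out libraries. With the replicate block, pairing libraries by number, it was 0.10 (exact p = 1, smallest possible 0.5), and with equal lists, where the groups did not overlap, 0.20 (exact permutation p = 0.333, the smallest possible). Regions of siControl only were 0 as reported, 4 with reciprocal overlap or summit windows, 2 with equal lists and 1 to 12 with a library left out. Regions of siChst7 only were 5 as reported, 8 at q of at most 0.001, 2 within 20 kb, 3 by start site and 7 to 22 with a library left out. For these alternatives the shares over all regions near a gene end are not given. The causes were not tested. The start site, the fold of at least 3, the 10 kb chain and its 5 and 20 kb alternatives (48.7% and 79.5% of the 39 regions, against 13.0% and 28.9% of all) were chosen after seeing the data. The summit motif windows were not run. Depth is unknown, so a peak absent from a list may have been missed at that list's threshold.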
